A study of Mus musculus with 10 samples.

Results

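The genes described here encode the enzymes of cholesterol synthesis together with the proteins that control SREBP2 and a pair of sterol transporters. They were chosen by symbol from the deposited gene count table, by membership in a list of 26 genes, and all 26 were found among its 54532 genes. Of these 26 genes, 25 passed the filter on low counts and entered the test over 14244 genes. Npc1l1, the intestinal cholesterol importer, was the exception, with 4 counts over the vehicle libraries and 0 over the napabucasin libraries.

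RNA was sequenced from whole livers of 5 vehicle mice and 5 napabucasin mice, 1 library for each biological replicate named in the labels, to compare gene expression after 7 days of daily oral gavage. Napabucasin (BBI608), a naphthoquinone studied as a STAT3 pathway inhibitor, was given at 20 mg per kg body weight. The vehicle was 1% NaCMC (sodium carboxymethyl cellulose, an inert thickener), and animals of both groups ate and drank freely. The labels give no strain, sex, age or hour of collection. Library totals ran from 14124484 to 17759967 counts in the vehicle group and from 15364342 to 17369118 in the napabucasin group. All 8 hepatocyte markers were detected, with a summed level of 57336 to 167946 CPM (the count scaled to the normalised library size) with vehicle and 80036 to 141402 CPM with napabucasin.

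Cholesterol is built from acetyl-CoA. The mevalonate arm makes the isoprene units, these are joined to farnesyl diphosphate and squalene, squalene is closed to lanosterol, and a series of oxidations and reductions turns lanosterol into cholesterol. The transcription factor SREBP2, held in the endoplasmic reticulum with its escort SCAP by INSIG proteins when sterol is plentiful, is released when sterol runs low and switches on most genes of the pathway. The liver is the main site of this synthesis and also disposes of cholesterol as bile acids. Sterol response elements are the short DNA stretches bound by SREBP2, which typically acts beside the CCAAT-binding factor NF-Y and the GC-box-binding factor Sp1.

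Promoters of 6 members are printed because their values carry the results below: Hmgcs1 as the most abundant member, and Insig1, Mvk, Idi1, Hsd17b7 and Ggps1 as the 5 members with an unadjusted p under 0.05. Each runs from 250 bases before to 50 bases after the RefSeq start site (GRCm38.p6), 5′ to 3′ on the gene's strand, with capitals marking the CCAAT box (CCAAT, or ATTGG where it lies on the other strand) and, in Hmgcs1, the sterol response element letters TCACNCCAC. The windows are chr13:119690101-119690400 (plus strand) for Hmgcs1, chr5:28071162-28071461 (plus) for Insig1, chr5:114444019-114444318 (plus) for Mvk, chr13:8885356-8885655 (plus) for Idi1, chr1:169969156-169969455 (minus) for Hsd17b7 and chr13:14063439-14063738 (minus) for Ggps1.
Hmgcs1: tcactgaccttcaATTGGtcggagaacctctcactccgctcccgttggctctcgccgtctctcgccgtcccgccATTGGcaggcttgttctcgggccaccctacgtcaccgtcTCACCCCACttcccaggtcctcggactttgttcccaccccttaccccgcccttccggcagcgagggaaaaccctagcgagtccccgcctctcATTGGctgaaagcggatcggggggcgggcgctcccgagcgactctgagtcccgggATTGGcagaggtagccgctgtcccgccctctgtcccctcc
Insig1: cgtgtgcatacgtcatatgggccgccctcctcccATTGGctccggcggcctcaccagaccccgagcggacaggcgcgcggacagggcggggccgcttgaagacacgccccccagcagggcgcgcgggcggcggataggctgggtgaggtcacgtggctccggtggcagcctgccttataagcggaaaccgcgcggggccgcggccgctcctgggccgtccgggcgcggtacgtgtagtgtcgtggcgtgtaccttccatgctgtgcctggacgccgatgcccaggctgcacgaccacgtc
Mvk: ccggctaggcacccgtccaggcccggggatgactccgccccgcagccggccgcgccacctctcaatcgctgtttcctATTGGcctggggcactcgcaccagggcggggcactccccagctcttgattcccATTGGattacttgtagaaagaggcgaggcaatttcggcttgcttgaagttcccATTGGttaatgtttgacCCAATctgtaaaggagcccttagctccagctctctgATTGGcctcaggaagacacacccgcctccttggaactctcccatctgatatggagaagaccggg
Idi1: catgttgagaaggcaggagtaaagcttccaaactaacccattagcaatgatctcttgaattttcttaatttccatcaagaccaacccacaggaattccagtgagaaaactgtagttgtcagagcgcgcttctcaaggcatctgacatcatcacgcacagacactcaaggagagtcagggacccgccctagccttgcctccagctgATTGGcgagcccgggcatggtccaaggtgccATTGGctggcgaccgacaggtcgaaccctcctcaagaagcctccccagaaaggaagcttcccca
Hsd17b7: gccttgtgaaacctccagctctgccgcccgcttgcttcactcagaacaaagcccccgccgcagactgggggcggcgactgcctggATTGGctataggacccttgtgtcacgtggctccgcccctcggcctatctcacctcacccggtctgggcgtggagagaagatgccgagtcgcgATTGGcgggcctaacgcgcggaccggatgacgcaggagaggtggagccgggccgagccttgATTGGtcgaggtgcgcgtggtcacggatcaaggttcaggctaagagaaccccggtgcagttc
Ggps1: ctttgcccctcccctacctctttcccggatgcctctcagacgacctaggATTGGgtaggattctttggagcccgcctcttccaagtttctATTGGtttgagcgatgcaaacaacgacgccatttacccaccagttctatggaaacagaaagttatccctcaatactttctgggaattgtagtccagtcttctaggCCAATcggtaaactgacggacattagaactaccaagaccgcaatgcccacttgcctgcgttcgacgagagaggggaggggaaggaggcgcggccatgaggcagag

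The table of RefSeq promoters held 28 promoters of 22 members, and none for Fdft1, Fdps, Sqle or Stard4. CCAAT, searched on both strands, occurred in 20 of the 22 members (90.9%), all but Acat2 and Scap, against 42.5% of the 10540 tested genes with a promoter in the table. Mvk held 5 such boxes and Hmgcs1 held 4. The GC box GGGCGG occurred in 19 members (86.4%, against 65.6% of tested genes), and the E box CACGTG, which circadian and SREBP factors can bind, in 5 (22.7%, against 11.4%): Dhcr7, Hsd17b7, Insig1, Sc5d and Scap. The letters TCACNCCAC occurred in Hmgcs1 alone of the 22, from -137 to -129 relative to the start site, against 1.47% of tested genes, and the D box TTATGTAA, bound by the clock output factor DBP and its relatives, in none of the 22 (0.778% of tested genes). The letters of none of the 5 motifs contain those of another. Only the stated letters were searched, so variant forms of the sterol response element were not counted in any member. These matches describe the printed windows and say nothing of binding in these livers.

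As a group the 25 tested members did not move one way. Insig1 and Ggps1 were higher in the napabucasin livers by point estimate and Mvk, Idi1 and Hsd17b7 lower, while Hmgcs1, Sc5d, Mvd and Pmvk had nearly equal group means. None of the 25 passed an adjusted p of 0.05 in edgeR's quasi-likelihood test, and neither did any of the 14244 genes (0% called). The smallest adjusted p among members was 0.204, for Mvk. At an unadjusted p under 0.05, 2 members were higher (8%, against 9.34% of all genes tested) and 3 were lower (12.0%, against 5.83%). Either way, 5 members met that level (20.0%), against 15.2% of all genes (1331 higher and 830 lower). With the replicate number as a block, the lower count over all genes was 1255, that of members was 4, and the counts past the adjusted threshold remained 0. DESeq2 called 209 of 14702 genes at an adjusted p of 0.05 (1.42%), with Mvk the 1 member among them. Limma-voom, run here and below with a quality weight for each library, called 132 (0.927%), with no member among them.

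The median log2 fold change of the members was -0.07, with quartiles of -0.35 and 0.02, beside 0.00 with quartiles of -0.25 and 0.32 over all genes tested. Point estimates were above 0 for 9 members (36.0%, against 50.1% of genes) and below 0 for 16 (64.0%, against 49.9%). Summed over the 26 genes, expression reached 4853 ± 1440 CPM in the vehicle group and, with napabucasin, 4944 ± 1142 CPM (SD, n = 5 in each). The spread between mice of a group, 3481 to 6528 CPM in vehicle and 3696 to 6262 CPM in napabucasin, was far wider than the gap between the means. Insig1, a control gene and not an enzyme, made up 446 CPM of the mean sum in vehicle and 822 CPM in napabucasin. Near-equal sums therefore do not show that the enzymes alone summed alike.

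**Figure D1:**
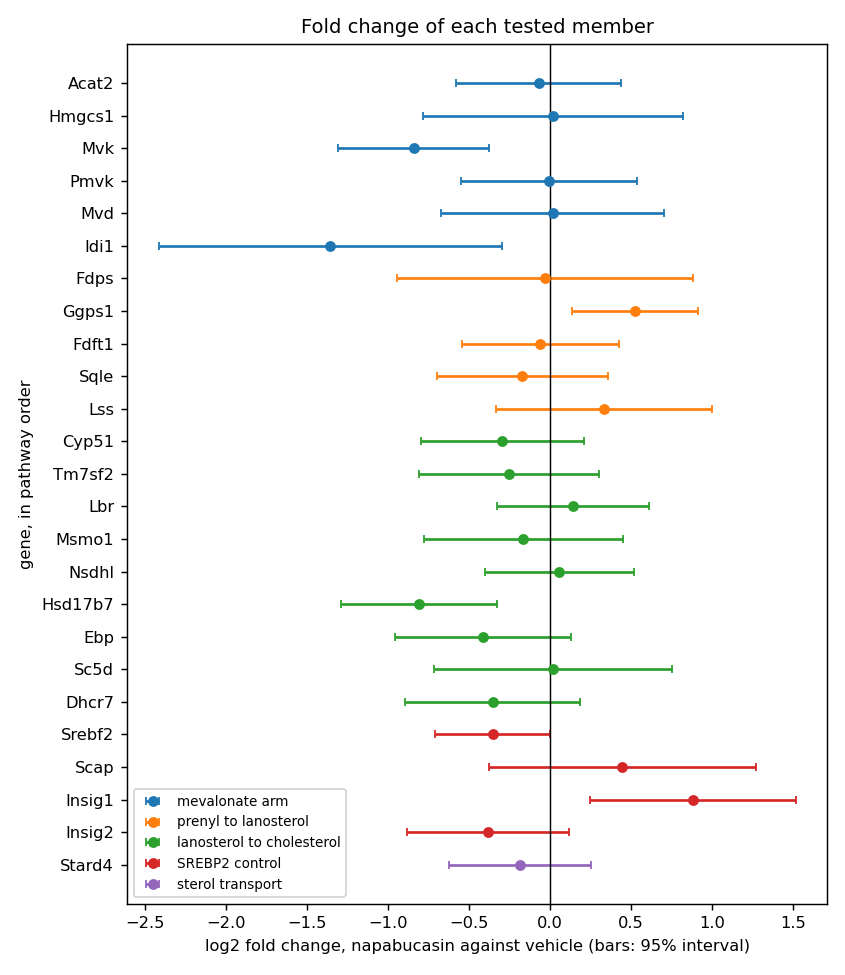
Log2 fold change of each of the 25 tested members, napabucasin against vehicle (x axis), with 95% intervals as bars and genes in pathway order (y axis), coloured by role. The intervals of Mvk, Idi1, Hsd17b7, Ggps1 and Insig1 lie to one side of 0, while none of the 25 passed the adjusted threshold.

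The mevalonate arm had 6 members, of which Mvk and Idi1 carried the lower values. Mvk (chromosome 5, 114444269 to 114460591), mevalonate kinase, measured 34.4, 38.9, 42.7, 23.5 and 31.7 CPM in vehicle replicates 1 to 5. In napabucasin replicates 1 to 5 it measured 15, 15.6, 28.4, 20.0 and 16.4 CPM. Every napabucasin library but replicate 3 lay below every vehicle library, so the groups overlapped by that library alone. The means were 34.2 ± 7.33 and 19.1 ± 5.57 CPM, a fold of 0.557 (95% interval 0.403 to 0.771). The log2 fold change of -0.84 (SE 0.22) had an unadjusted edgeR p of 0.00178 and an adjusted p of 0.204, and in DESeq2 it was -0.85 with an adjusted p of 0.0428. Mmab, a cobalamin enzyme gene read in the opposite direction from a start 209 bases away and so within the printed Mvk window, had a log2 fold change of -0.23 (unadjusted p of 0.223 in edgeR).

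Idi1 (chromosome 13, 8885501 to 8892451), the isomerase that interconverts the isoprene units, had the largest fold among the members and, in the vehicle group, the widest scatter (a coefficient of variation of 65.5%). In vehicle replicates 1 to 5 it measured 18.9, 22.7, 103, 59.4 and 94.8 CPM. Napabucasin replicates 1 to 5 gave 7.73, 18.2, 32.2, 38.6 and 19.4 CPM. Vehicle replicates 1 and 2 sat inside the napabucasin range and the other three vehicle libraries sat above it. Taken by replicate number, a pairing that the labels do not give, the napabucasin library was the lower in 5 of 5 pairs. The same held for Mvk, Srebf2 and, by a very small margin in replicate 2, Ebp. For Insig1 and Ggps1 the napabucasin library was the higher in every pair. The share of all genes with such pairs was not computed. With the number as a block the log2 fold change was -1.23 (SE 0.27, adjusted p of 0.0756 in edgeR). The means were 59.7 ± 39.1 and 23.2 ± 12.2 CPM, a fold of 0.390 (95% interval 0.187 to 0.812), with a log2 fold change of -1.36 (SE 0.49, adjusted p of 0.270 in edgeR). Without vehicle replicate 3 its unadjusted p was 0.0506 in edgeR.

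Hmgcs1 (chromosome 13, 119690379 to 119708260), the cytosolic HMG-CoA synthase and a classical SREBP2 target, measured 1751, 877, 1587, 685 and 561 CPM in vehicle replicates 1 to 5. It measured 905, 1705, 1567, 633 and 728 CPM in napabucasin replicates 1 to 5. Both groups split alike into libraries near or above 1567 CPM and libraries at or below 905 CPM. The means of 1092 ± 542 and 1107 ± 494 CPM gave a fold of 1.01 with a 95% interval of 0.581 to 1.77, too wide to say that the groups were alike. Acat2, the cytosolic thiolase that opens the pathway, stood at -0.07 on the log2 scale (95% interval -0.58 to 0.44). Pmvk, phosphomevalonate kinase, stood at -0.01 (-0.55 to 0.54), and Mvd, mevalonate diphosphate decarboxylase, at 0.02 (-0.67 to 0.70). The 6 genes of the arm had a median of -0.04, with 2 at an unadjusted p under 0.05, both lower. For this and the other parts of the pathway, the shares at that level over all genes tested were 9.34% higher and 5.83% lower.

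**Figure D2:**
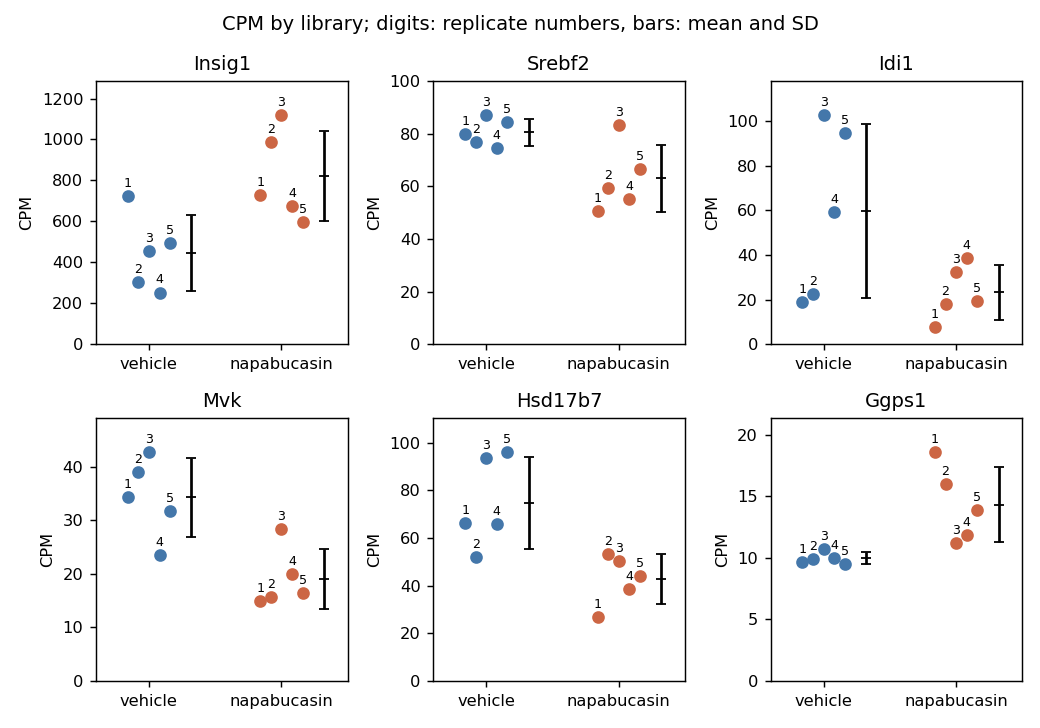
CPM (y axis) of Insig1, Srebf2, Idi1, Mvk, Hsd17b7 and Ggps1 in each vehicle and napabucasin library (x axis), with replicate digits beside the points and the mean and SD as bars. Ggps1 alone of the 6 has no overlap between groups, and napabucasin replicate 3 is the library of Mvk and Srebf2 nearest the vehicle level.

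Between the isoprene units and lanosterol stood 5 members. Ggps1 (chromosome 13, 14050659 to 14063488) makes geranylgeranyl diphosphate, the lipid attached to Rab and other small GTPases, and so leads away from sterol. Its vehicle replicates 1 to 5 were tightly grouped at 9.66, 9.92, 10.7, 9.95 and 9.48 CPM. Its napabucasin replicates 1 to 5 measured 18.6, 16, 11.2, 11.8 and 13.9 CPM. Ggps1 was the 1 member of 25 (4.00%) whose groups did not overlap, against 2.15% of all genes tested (1.21% with napabucasin higher, as for Ggps1, and 0.934% with napabucasin lower, as for no member). The means were 9.95 ± 0.478 and 14.3 ± 3.05 CPM, a fold of 1.44 (95% interval 1.10 to 1.88; log2 fold change 0.52, SE 0.18, adjusted p of 0.256 in edgeR). Its unadjusted edgeR p was 0.0120, and 0.0214 with the replicate number as a block. Arid4b overlaps Ggps1 on the opposite strand with 5723 counts against 2010 for Ggps1, and its log2 fold change was 0.40 (unadjusted p of 0.0985 in edgeR). The library protocol does not mark strand, so reads from the shared stretch cannot be told apart.

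Sqle (chromosome 15, 59315077 to 59331192), squalene epoxidase and a rate-controlling enzyme of the sterol branch, measured 183, 125, 134, 101 and 106 CPM in vehicle replicates 1 to 5. Its napabucasin replicates 1 to 5 measured 91.6, 141, 172, 82.5 and 88.0 CPM. The groups overlapped, with replicates 1, 4 and 5 of napabucasin below all vehicle libraries and replicates 2 and 3 within their range. Its fold was 0.887 with a 95% interval of 0.615 to 1.28. Fdft1, squalene synthase, stood at -0.06 on the log2 scale (95% interval -0.54 to 0.42), and Lss, which closes the lanosterol rings, at 0.33 (-0.33 to 1.00). Fdps, farnesyl diphosphate synthase, stood at -0.03 (-0.95 to 0.88). Ctsb overlaps Fdft1 on the opposite strand with 145012 counts over the 10 libraries against 33408, and its log2 fold change was 0.12.

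From lanosterol to cholesterol there were 9 members, 6 of them lower by point estimate and 1, Hsd17b7, at an unadjusted p under 0.05, with a median of -0.25. Hsd17b7 (chromosome 1, 169949535 to 169969241) is the sterol 3-ketoreductase that completes demethylation at carbon 4. It measured 66.3, 52.0, 93.6, 65.9 and 96.1 CPM in vehicle replicates 1 to 5 and 26.9, 53.4, 50.4, 38.7 and 43.9 CPM in napabucasin replicates 1 to 5. Vehicle replicate 2 lay between the 2 highest napabucasin libraries, and no other pair of libraries crossed. The means were 74.8 ± 19.2 and 42.7 ± 10.5 CPM, a fold of 0.571 (95% interval 0.409 to 0.798; log2 fold change -0.81, SE 0.22, adjusted p of 0.221 in edgeR).

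Nsdhl and Msmo1, the partners of Hsd17b7 in the removal of the carbon 4 methyl groups, did not share its fold. Nsdhl averaged 151 ± 42.9 CPM in vehicle against 157 ± 25.7 CPM, 0.06 on the log2 scale (95% interval -0.40 to 0.52). Msmo1 averaged 293 ± 82.4 CPM against 261 ± 99.8 CPM, -0.16 on the log2 scale (-0.78 to 0.45). Their difference from Hsd17b7 was not tested.

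Ebp (chromosome X, 8185329 to 8193512), the sterol isomerase that moves the ring double bond, measured 342, 172, 348, 226 and 257 CPM in vehicle replicates 1 to 5. Napabucasin replicates 1 to 5 gave 133, 172, 284, 185 and 233 CPM. The groups overlapped over most of their ranges, with a log2 fold change of -0.42 (SE 0.25, adjusted p of 0.433 in edgeR). Dhcr7, which makes cholesterol from 7-dehydrocholesterol, stood at -0.35 on the log2 scale (95% interval -0.90 to 0.19), and Sc5d, the desaturase just before it, at 0.02 (-0.72 to 0.75). Cyp51, the lanosterol demethylase, stood at -0.29 (-0.80 to 0.21). Tm7sf2 and Lbr, the alternative reductases that act after Cyp51, stood at -0.25 (-0.81 to 0.30) and 0.14 (-0.33 to 0.61). Akap9 overlaps Cyp51 on the opposite strand, with 6795 counts against 41332 for Cyp51 over the 10 libraries.

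The control genes pointed different ways. Insig1 (chromosome 5, 28071363 to 28078662), the retention protein that is itself an SREBP target, measured 724, 303, 457, 253 and 493 CPM in vehicle replicates 1 to 5. In napabucasin replicates 1 to 5 it measured 730.3, 988, 1118, 677 and 596 CPM. Vehicle replicate 1 reached the napabucasin range, and the other four vehicle libraries lay below all 5 napabucasin libraries. The means were 446 ± 185 and 822 ± 221 CPM, a fold of 1.84 (95% interval 1.19 to 2.86; log2 fold change 0.88, SE 0.30, adjusted p of 0.251 in edgeR).

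Srebf2 (chromosome 15, 82147181 to 82205379), which encodes SREBP2 and carries its own sterol response, measured 79.8, 76.9, 87.0, 74.7 and 84.5 CPM in vehicle replicates 1 to 5. In napabucasin replicates 1 to 5 it measured 50.8, 59.4, 83.2, 55.1 and 66.8 CPM. Napabucasin replicate 3 lay within the vehicle range and the other four napabucasin libraries lay below it. Mean levels were 80.6 ± 5.13 and 63.1 ± 12.7 CPM, which is -0.35 on the log2 scale (SE 0.17, unadjusted p of 0.0511 and adjusted p of 0.331 in edgeR). With the replicate number as a block the unadjusted p was 0.0320.

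Insig2 (chromosome 1, 121304353 to 121332589), the isoform whose main liver transcript is repressed by insulin, measured 175, 130.1, 184, 206 and 282 CPM in vehicle replicates 1 to 5. Its napabucasin replicates 1 to 5 measured 121, 146, 115, 163 and 203 CPM. The groups overlapped, and the log2 fold change was -0.38 (SE 0.23, adjusted p of 0.430 in edgeR), opposite in sign to that of Insig1. Scap, the SREBP escort, averaged 104 ± 37.2 CPM against 141 ± 77.9 CPM, 0.45 on the log2 scale (95% interval -0.38 to 1.27). Stard4, a soluble carrier that moves cholesterol between membranes, stood at -0.19 on the log2 scale (-0.63 to 0.25).

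**Figure D3:**
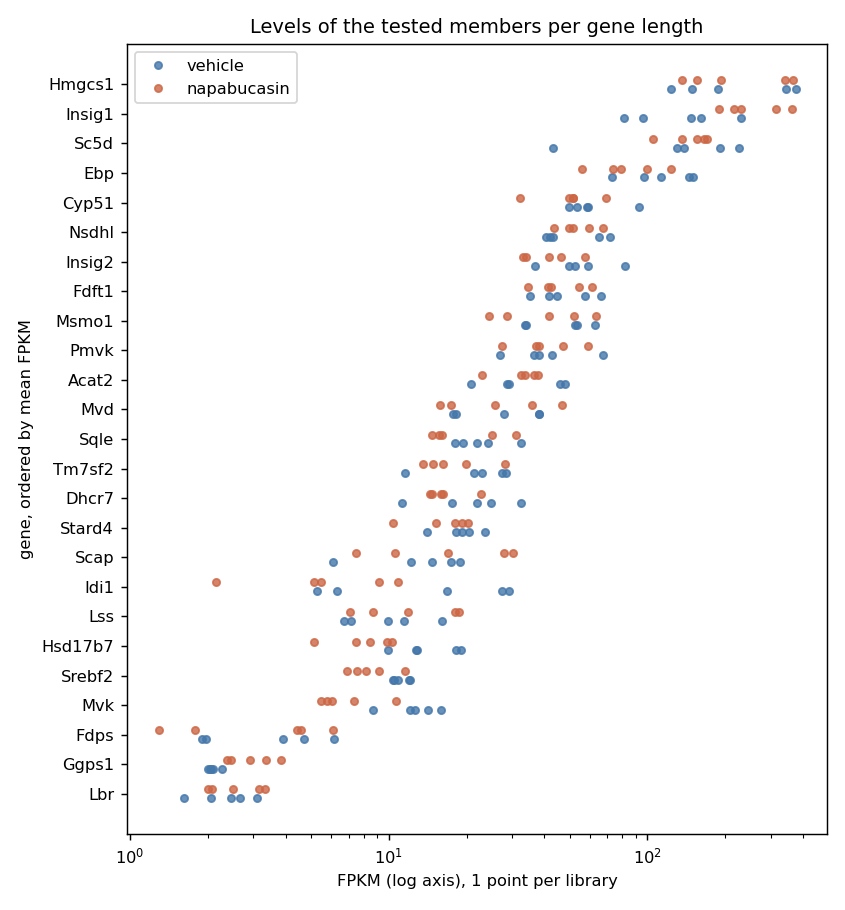
FPKM of the 25 tested members on a log axis (x axis), 1 point per library, with genes ordered by mean FPKM (y axis) and groups by colour. Hmgcs1, Insig1 and Sc5d stand at the top and Ggps1 and Lbr at the bottom, and the points of vehicle and napabucasin overlap for every gene but Ggps1.

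Levels were compared between genes on the FPKM scale, which corrects for gene length. Hmgcs1 stood highest of the 26 in vehicle, at 235 ± 116 FPKM. Sc5d (146 ± 69.4) and Insig1 (143 ± 59.0) came next, and these neighbours differed by less than their spread. In the napabucasin livers Insig1 stood first at 262 ± 72.6 FPKM, beside Hmgcs1 at 238 ± 108 FPKM. Mvk, at 12.7 ± 2.68 and 7.05 ± 2.13 FPKM, and Hsd17b7, at 14.6 ± 3.92 and 8.26 ± 2.07 FPKM, were among the lower enzymes. Lbr (2.38 ± 0.563 and 2.61 ± 0.608), Ggps1 (2.09 ± 0.1 and 2.98 ± 0.612) and Fdps (3.72 ± 1.82 and 3.63 ± 2.03) closed the order of the tested members. Gm22935, an snRNA gene with 157 counts, and Gm43738, a protein-coding gene with 1 count, overlap Fdps (2640 counts) on the same strand. The effect of these overlaps on the Fdps level was not tested.

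A few libraries held the highest or lowest values for many of the members. The mean over members of log2 CPM, centred on each gene's mean over the 10 libraries, was 0.279, -0.247, 0.377, -0.156 and 0.0590 in vehicle replicates 1 to 5. It was -0.233, 0.111, 0.262, -0.311 and -0.140 in napabucasin replicates 1 to 5. The group means of this score were 0.0624 ± 0.269 and -0.0624 ± 0.241, so the spread within each group exceeded the gap between them. Vehicle replicate 3 held the highest value of all 10 libraries for 9 members and the lowest for none. Vehicle replicate 2 held the lowest value for 6 members, napabucasin replicate 1 for 7 and napabucasin replicate 4 for 5. Vehicle replicate 2 also had the lowest share of counts from the hepatocyte marker Alb, 3.48%, with the other libraries at 5.89% to 11.5%. The part of this share in the members' values was not tested. Within the napabucasin group, replicate 3 was highest for 13 of 25 members. How often each library was highest or lowest over all genes tested was not computed, so these counts cannot be called particular to the members.

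Hmgcs1 separated 4 libraries, vehicle replicates 1 and 3 and napabucasin replicates 2 and 3, at 1567 to 1751 CPM, from the other 6 at 561 to 905 CPM. Fdft1, Sqle, Nsdhl and Sc5d had the same 4 libraries as their highest. Hmgcs1, which set the pattern, meets it by construction. With Hmgcs1 counted on both sides, this made 5 members (20.0%), against 52 of all 14244 genes (0.365%). The pattern was picked out after the values were seen and crosses the treatment groups. The other tested members did not share all 4 libraries, and Idi1, Ggps1, Lbr and Insig2 had only 1 of them among their highest 4. The median coefficient of variation of the members was 28.5% in vehicle and 26.9% in napabucasin, beside 25.3% and 28.2% over all genes tested.

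**Figure D4:**
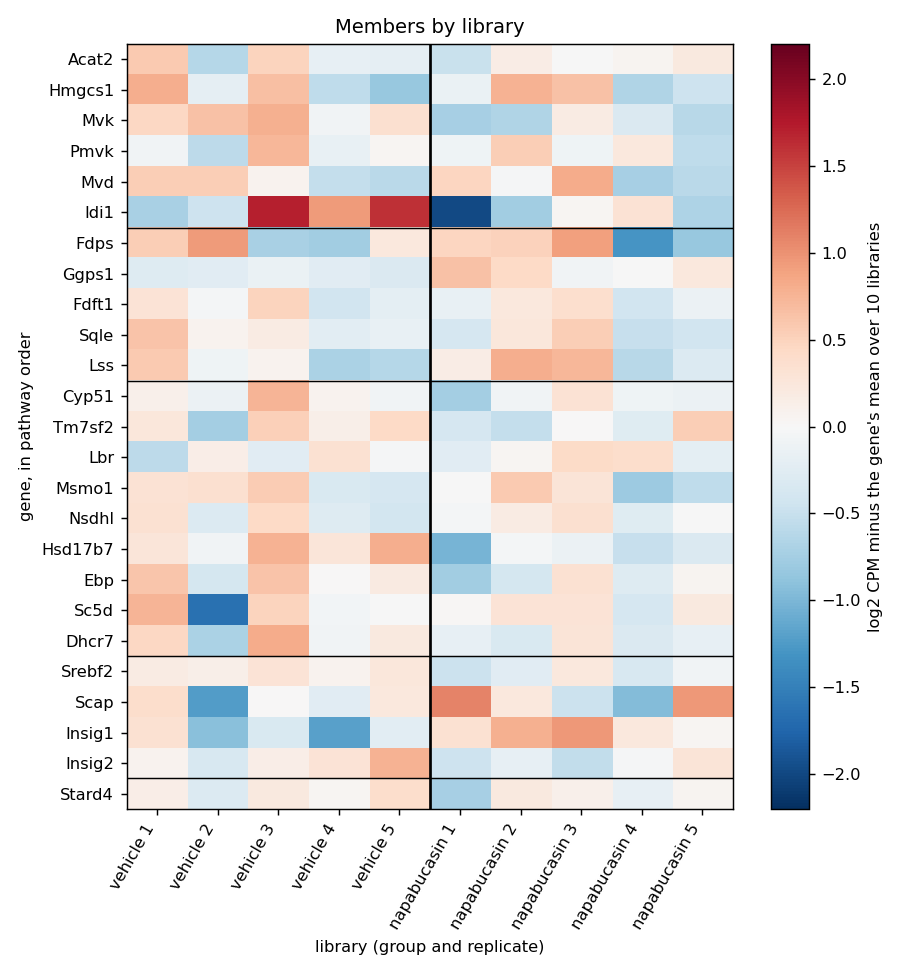
Log2 CPM of each tested member minus its mean over the 10 libraries (colour), with libraries by group and replicate (x axis) and genes in pathway order (y axis). Vehicle replicates 1 and 3 and napabucasin replicate 3 are high across much of the pathway. Not every member follows this, with Ggps1 below its mean in each of these libraries and Idi1 below its mean in vehicle replicate 1.

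Further genes of SREBP processing, 15 in all, included 6 above and 9 below 0, with a median log2 fold change of -0.07. At an unadjusted p under 0.05, 1 was higher and 2 were lower. For this and each list below, the shares at that level over all genes tested were 9.34% higher and 5.83% lower. March6, a ubiquitin ligase that degrades squalene epoxidase, had groups that did not overlap, at 125 ± 32.9 CPM in vehicle and 76.0 ± 7.14 CPM in napabucasin (log2 fold change -0.71, adjusted p of 0.221 in edgeR). In limma-voom March6 stood at -0.81 with an adjusted p of 0.0388. Mbtps2, a protease that frees SREBP from the membrane, was the other gene of the 15 whose groups did not overlap, with napabucasin higher (8.20 ± 0.461 against 9.42 ± 0.456 CPM, log2 fold change 0.20), and was named after its values were seen. Over all genes tested, groups did not overlap for 2.15%. Rnf145, a ubiquitin ligase of the endoplasmic reticulum, stood at 0.25. Srebf1, which encodes the sister factor that drives fatty acid synthesis, averaged 181 ± 88.6 CPM against 295 ± 107 CPM, 0.70 on the log2 scale (unadjusted p of 0.0458 in edgeR).

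The list named other SREBP targets held 19 genes outside cholesterol synthesis, with 8 above and 11 below 0. Whether SREBP drives each of them, Mylip included, was not tested. At an unadjusted p under 0.05, 4 were higher and 2 lower, and the median was -0.20. The 4 with the smallest p were higher: Aacs, acetoacetyl-CoA synthetase, by 0.86, Pcyt2, of phosphatidylethanolamine synthesis, by 1.07, Mylip, a ubiquitin ligase, by 0.63, and Fasn, fatty acid synthase, by 0.79 on the log2 scale. The lower genes at that level, named after their values were seen, were the fatty acid desaturases Fads2 at -0.87 and Scd1 at -0.75. None of these 6 genes passed the adjusted threshold.

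The isoprenoid branch, which uses farnesyl and geranylgeranyl units for dolichol, prenylation and ubiquinone, held 14 genes with 6 above and 8 below 0. At an unadjusted p under 0.05 none was higher and 3 were lower, with a median of -0.17. Fnta, the shared alpha subunit of the protein prenyltransferases, had groups that did not overlap, 32.6 ± 5.02 against 25.9 ± 1.16 CPM (log2 fold change -0.34). Dolk and Dhdds, of dolichol synthesis, stood at -0.54 and -0.45. Rabggta, of the Rab geranylgeranyl transferase, stood at 0.55.

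Cholesterol handling, the list of efflux, esterification and bile acid genes, had 23 of 24 genes tested, 13 above and 10 below 0, of which 6 and 2 had an unadjusted p under 0.05, with a median of 0.14. Cyp7a1, the rate-limiting enzyme of classical bile acid synthesis, measured 28.1, 23.5, 84.1, 49.3 and 36.0 CPM in vehicle replicates 1 to 5. Its napabucasin replicates 1 to 5 measured 4.86, 4.82, 6.14, 2.83 and 17.8 CPM. The groups did not overlap, and napabucasin replicate 5 stood nearest the vehicle range. The log2 fold change was -2.61, with an unadjusted edgeR p of 9.34e-05 and an adjusted p of 0.157. Cyp7a1 passed the adjusted threshold in DESeq2 (-2.62, adjusted p of 1.49e-05), in limma-voom (-2.96, adjusted p of 0.0185) and, in edgeR, without napabucasin replicate 5 (-3.25, adjusted p of 0.0181). Cyp8b1, which sets the cholic acid share of bile acids, stood at -1.74, Abcg1, a cholesterol exporter, at 0.63, and Gramd1c, a membrane sterol transfer protein, at 0.88.

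**Figure D5:**
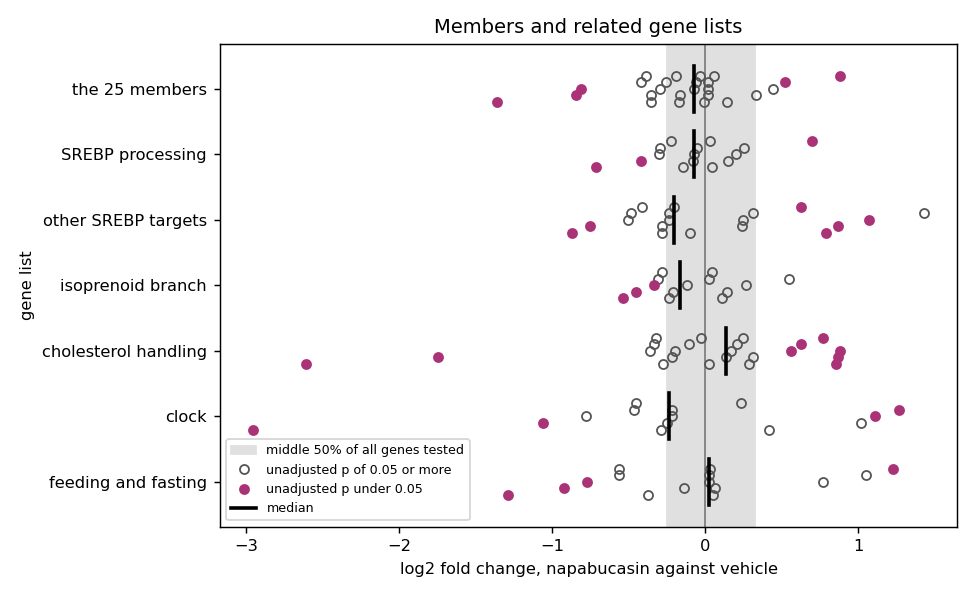
Log2 fold change (x axis) of each tested gene of the 25 members and of 6 related lists (y axis), filled where the unadjusted p was under 0.05, with list medians as bars and the middle 50% of all genes tested as the grey band. The medians of all lists lie inside the band, and Cyp7a1 and the clock gene Dbp are the points farthest to the left.

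Other measures differed beside these values. Cholesterol synthesis in mouse liver follows the clock and feeding, and among 14 tested clock genes an unadjusted p under 0.05 was met by 2 higher and 2 lower ones. Dbp measured 1.54, 14.5, 25.8, 7.47 and 18.3 CPM in vehicle and 1.68, 2.33, 2.16, 0.641 and 1.92 CPM in napabucasin replicates 1 to 5, so that vehicle replicate 1 stood with the napabucasin livers. Arntl measured 28.5, 10.2, 8.24, 11.6 and 11.7 CPM in vehicle and 49.9, 32, 18.5, 25.3 and 25.2 CPM in napabucasin replicates 1 to 5. Vehicle replicate 1 was again the vehicle library nearest the napabucasin group, as it was for Insig1. Dbp stood at -2.95 on the log2 scale, Arntl at 1.11, Hlf, a DBP relative, at -1.06 and Cry1, a clock repressor, at 1.27, with adjusted p of 0.157, 0.233, 0.185 and 0.207 in edgeR. In DESeq2 Dbp, Hlf and Cry1 passed the adjusted threshold (adjusted p of 3.4e-05, 0.0192 and 0.0234), in limma-voom Hlf and Cry1 (0.0426 and 0.0324), and in edgeR without vehicle replicate 1 Dbp and Cry1 (0.0120 and 0.0495). Of 15 feeding and fasting genes, 1 was higher and 3 lower at that level. Mlxipl, the carbohydrate response factor, stood at 1.23, and Cpt1a and Cyp4a14, of fatty acid oxidation, at -0.92 and -1.29, with adjusted p of 0.250, 0.221 and 0.285 in edgeR. Cpt1a passed the adjusted threshold in DESeq2 (adjusted p of 0.0322) and limma-voom (0.0490). The part of clock hour and feeding in the members' values was not tested.

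Marker levels of other cells also differed by point estimate, with no gene past the adjusted threshold in edgeR. All 6 T cell and all 6 B cell markers were higher at an unadjusted p under 0.05, against 9.34% of all genes tested. So were 1 of 6 Kupffer cell, 4 of 6 endothelial and 3 of 6 stellate cell markers. Summed levels of T cell markers were 7.87 to 12.6 CPM in vehicle and 13.8 to 34.0 CPM in napabucasin. For B cell markers they were 19.0 to 29.7 against 49.5 to 106 CPM. Point estimates were above 0 for all 6 Kupffer cell markers (232 to 1242 against 460.3 to 1775 CPM), all 6 endothelial markers (92.2 to 223 against 169.9 to 380.1 CPM) and all 6 stellate cell markers (243 to 319 against 259 to 739.8 CPM), and for 1 of 8 hepatocyte markers. Cholangiocyte markers summed to 216 to 479 and 267 to 446 CPM, and pancreas and gut markers to 34.7 to 56.6 and 28.2 to 43.9 CPM, with Amy2a2 at 0 in all libraries. In whole tissue, fewer cells of a type and less RNA per cell cannot be told apart. Mitochondrial transcripts took 19.0%, 7.08%, 7.04%, 8.78% and 7.03% of counts in vehicle and 19.9%, 15.3%, 10.3%, 9.03% and 11.4% in napabucasin replicates 1 to 5, with vehicle replicate 1 again beside the napabucasin group. The part of these measures in the members' values was not tested. Without vehicle replicate 1 the log2 fold change of Insig1 was 1.11 and that of Idi1 was -1.61.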

How the data were processed

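Poly(A)-selected RNA of 10 mouse livers was sequenced. The submitters' processing notes name build GRCm38 (mm10), featureCounts 1.5.0-p3, HISAT2 2.0.5 and CASAVA. Neither an annotation release nor a strand setting is given in the sources used here, and the library protocol in the labels does not mark strand. The authors deposited raw read counts per gene and FPKM values, and their FPKM group means were not used.

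The counts went into edgeR 4.0.16 (R 4.3.3): filterByExpr, which kept 14244 of 54532 genes (26567 had a count above 0), TMM scaling, then a robust quasi-likelihood test of napabucasin against vehicle, with Benjamini-Hochberg adjustment over all genes tested and a threshold of 0.05. SEs were derived from the F statistic. CPM uses TMM library sizes, log2 CPM a prior count of 2, with a common biological coefficient of variation of 0.325. The scripts were tested on simulated data.

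Replicate numbers occur in both groups. Correlations between the deviations of libraries with one number were 0.154, 0.227, 0.208, 0.270 and 0.278, all above 0.1, so a fit with the number as a block was made. This pairing comes from the data, not from the labels. Among the 10 libraries, 6 correlated best with the library of their own number in the other group, and those numbered 1 did not. Other alternatives were DESeq2 1.42.0, limma-voom with quality weights for each library (called limma-voom throughout) and limma 3.58.1 on log2(FPKM + 1) and log2(FPKM + 0.1). Other scalings and filters, and leaving out each library, were also tried.

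Members and lists were chosen with earlier results of these data known. Given in every library were the 8 members of smallest p plus Srebf2, Insig1, Hmgcs1, Sqle and Cyp7a1. Dbp and Arntl were added to these after their values were seen. Up to 4 genes of smallest p were named from each related list; some are not reported here. March6 is listed under a date-like symbol and was matched by its gene ID. RefSeq promoters came from a table of 32851 promoters of 27025 genes (GRCm38.p6).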

Additional observations from a re-analysis of the deposited data

Results flagged for a closer look

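In groups of 5 libraries, a library was looked at again where its gap to the nearest other library exceeded 0.71 of the group's range. Of 98 groups examined 8 met this, where chance gives about 4.9 (1 in 20 groups), and 2 of the 8 were among the 50 groups of members. Cyp51 stood at 411 CPM in vehicle replicate 3, with the other vehicle libraries at 225 to 264 CPM, and Dhcr7 at 132 CPM in napabucasin replicate 3, with the others at 85.2 to 95.5 CPM. Vehicle replicate 1 stood apart for Srebf1 (337 CPM, others 119 to 166 CPM), Pcyt2 (766 CPM, others 421 to 474 CPM), Arntl (28.5 CPM, others 8.24 to 11.7 CPM) and Mlxipl (361 CPM, others 136 to 177 CPM). Dhdds stood at 39.5 CPM in vehicle replicate 3, with the others at 22.1 to 25.9 CPM. Cyp7a1 stood at 17.8 CPM in napabucasin replicate 5, with the others at 2.83 to 6.14 CPM.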

How the results depend on the processing

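Under the 21 alternatives Insig1 ran from 0.74 to 1.23, Mvk from -1.03 to -0.55, Hsd17b7 from -0.90 to -0.68 and Ggps1 from 0.35 to 0.60 on the log2 scale, each at an unadjusted p under 0.05 in all 21. Idi1 ran from -1.63 to -1.07 and met that level in 18, and Srebf2 from -0.47 to -0.23 and met it in 6. The count of genes past the adjusted threshold, 0 in edgeR, was 209 in DESeq2 (158 higher, 51 lower), 132 in limma-voom (98 higher, 34 lower), 19 with every gene of at least 1 count (15 higher, 4 lower), 1 with library size only (1 higher) and 1 with limma on log2(FPKM + 0.1) (1 lower). Leaving out 1 library gave 0 to 18 (higher 0 to 14, lower 0 to 4), with 18 without vehicle replicate 1 and 3 without napabucasin replicate 5. At an unadjusted p under 0.05, the higher count of 1331 was 882 with log2(FPKM + 0.1) and 852 to 1633 with 1 library left out. The lower count of 830 was 361 with library size only, 1412 with every gene, 1564 in limma-voom, 1255 with the replicate block and 457 to 1198 with 1 library left out. The replicate block changed no call at the adjusted threshold.

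Members past the adjusted threshold numbered 1 in DESeq2 (Mvk) and 0 in the other alternatives. Members lower at an unadjusted p under 0.05 numbered 2 to 5 with 1 library left out, 5 without vehicle replicate 2 or napabucasin replicate 3 and 2 without vehicle replicate 3. The members' median ran from -0.24 (without napabucasin replicate 3) to 0.05 (limma-voom). Signs turned for members near 0. With library size only, Acat2 stood at 0.058, Pmvk at 0.12, Fdps at 0.0019 and Fdft1 at 0.038. In limma-voom Acat2 stood at 0.045, Fdps at 0.43, Fdft1 at 0.15 and Sqle at 0.092. With every gene of at least 1 count Mvd stood at -0.0073 and Sc5d at -0.0017. With log2(FPKM + 1), filtered or not, Pmvk stood at 0.0013 and Mvd at -0.027, with log2(FPKM + 0.1) at 0.0016 and -0.029, and with the replicate block at 0.0075 and -0.022. With 1 library left out, Acat2 ran from -0.20 to 0.068, Hmgcs1 from -0.18 to 0.24, Pmvk from -0.16 to 0.22, Mvd from -0.23 to 0.18, Fdps from -0.30 to 0.25, Fdft1 from -0.17 to 0.0699, Nsdhl from -0.031 to 0.19 and Sc5d from -0.21 to 0.22. The cause of these shifts was not tested. Npc1l1 did not pass the filter on low counts and so was not tested.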
